A study of Mus musculus with 23 samples.

Results

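The BCL2 family genes described here were Bcl2, Bcl2l1, Mcl1, Bax, Bak1, Bcl2l11, Bbc3, Pmaip1, Bid and Bad, which were picked by name. They are 10 of the 21900 protein-coding genes in the count table, and all 10 passed the filter on low counts in each model. The libraries came from OT-I cells (source CD8 T cells) and OT-II cells (source CD4 T cells), T cells whose transgenic receptors recognise ovalbumin (OVA), that had been moved into recipient C57BL/6 mice. On the day after transfer the mice received 1 µg A8B1-OVA, a higher dose of OVA, the molar equivalent of OVA, or saline, and the sort, from lymph nodes and spleens pooled together, took place on day 5 after transfer. Each library pooled the RNA of 3 mice, and each of the 8 groups had 3 libraries, except OT-II higher-dose OVA with 2, which gave 23 libraries. All groups shared the transfer and the sort, so the saline groups were transferred cells without antigen and not cells taken straight from a donor. The labels do not describe A8B1 beyond its name, give the OVA doses no unit and write the OT-II cell type as OT-i, and the group was taken from titles and source. The labels do not say whether OT-I and OT-II libraries with the same number came from the same mice.

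BCL2 family proteins decide whether the outer mitochondrial membrane is opened, the step that releases cytochrome c and starts the caspases. BCL2, BCL-XL (from Bcl2l1) and MCL1 hold the pore formers BAX and BAK in check, and the BH3-only proteins BIM (from Bcl2l11), PUMA (Bbc3), NOXA (Pmaip1), BID and BAD counter those guards or act on BAX and BAK themselves. In T cells, BCL2 is kept up by interleukin-7, BCL-XL comes on after activation through the antigen receptor, and BIM is needed for the death of many cells of a response.

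After A8B1-OVA, OT-I cells carried less Bcl2, Bbc3 and Pmaip1 mRNA and more Bcl2l1 and Bcl2l11 mRNA than OT-I cells of saline mice. In OT-II cells Bcl2l1 was the 1 member that passed the test against saline. Mcl1, Bax, Bid and Bad did not pass in any comparison between treatments, and Bak1 did not either in edgeR's quasi-likelihood test, the test used throughout. OT-I cells had more Bbc3, Pmaip1 and Bid mRNA than OT-II cells under all 4 treatments.

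Depth ranged from 26584040 to 73503642 estimated counts per library, so that 3 counts, taken as the floor of detection, came to at most 0.113 CPM (a gene's count scaled to a common library size). Gene levels below are CPM scaled by TMM factors over all 23 libraries, and the marker values of this paragraph are CPM by plain library totals. The sorted identities matched their defining genes: Cd8a and Cd8b1 together gave at least 2386 and at most 3904 CPM in OT-I libraries, against at most 60.1 CPM in OT-II libraries, and Cd4 with Zbtb7b gave 638 to 789 CPM in OT-II libraries and 1.99 to 16.8 in 11 of the 12 OT-I libraries. OT-I higher-dose OVA replicate 1 stood apart with 199 CPM of the CD4 pair. Replicate 2 of OT-I molar-equivalent OVA had 1056 CPM summed over 15 myeloid genes and 527 CPM over 10 B cell genes, and OT-I saline replicate 1 had 399.9 CPM over the myeloid genes. In OT-II cells, saline replicate 1 had a myeloid sum of 656 CPM and an erythroid sum of 1120 CPM, and molar-equivalent OVA replicate 3 had a B cell sum of 183 CPM. In the other 18 libraries the myeloid sums lay between 43.1 and 205 CPM, the B cell sums between 37.2 and 132 CPM and the erythroid sums between 58.6 and 713 CPM, and the B cell gene Pax5 was at 0 in some libraries of both cell types. Platelet sums stayed at or below 6.43 CPM in all 23, and Ncr1, which defines natural killer cells, at or below 4.93 CPM. The sum over 6 natural killer genes, Ncr1 among them, was 995 to 1929 CPM in OT-I and 25.5 to 72.7 CPM in OT-II libraries. Whether natural killer cells contributed to the OT-I sums was not tested. The 5 libraries singled out here, called raised-marker libraries below, were kept in the tests, and results that change without them are named where they stand. A bulk library cannot tell fewer cells of a type from less RNA per cell.

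RefSeq promoter windows (GRCm38.p6, 250 bases before to 50 after a start) were at hand for 9 of the 10 genes. A single window each of 3 genes that passed the test in OT-I cells is shown 5′ to 3′ on the gene's strand. The genes are a guard that fell and BH3-only genes that moved in opposite directions. Capitals mark matches to any of 9 searched motifs, here the FOXO letters GTAAACA and the EGR letters GCGNGGGCG, each searched on both strands.
Bcl2, chr1:106714241-106714540, minus strand: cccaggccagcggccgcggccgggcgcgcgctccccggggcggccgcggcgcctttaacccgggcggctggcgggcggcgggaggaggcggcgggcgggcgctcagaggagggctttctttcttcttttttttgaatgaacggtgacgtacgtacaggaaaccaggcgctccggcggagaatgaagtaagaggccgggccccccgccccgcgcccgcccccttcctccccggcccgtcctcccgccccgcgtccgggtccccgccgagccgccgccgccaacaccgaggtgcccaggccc
Bcl2l11, chr2:128125788-128126087, plus strand: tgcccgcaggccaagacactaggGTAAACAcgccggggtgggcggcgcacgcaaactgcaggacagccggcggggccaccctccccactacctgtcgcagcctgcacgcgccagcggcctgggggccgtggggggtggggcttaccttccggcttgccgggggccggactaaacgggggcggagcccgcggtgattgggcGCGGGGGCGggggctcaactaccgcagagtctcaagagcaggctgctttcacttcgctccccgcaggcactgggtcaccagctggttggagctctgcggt
Bbc3, chr7:16310011-16310310, plus strand: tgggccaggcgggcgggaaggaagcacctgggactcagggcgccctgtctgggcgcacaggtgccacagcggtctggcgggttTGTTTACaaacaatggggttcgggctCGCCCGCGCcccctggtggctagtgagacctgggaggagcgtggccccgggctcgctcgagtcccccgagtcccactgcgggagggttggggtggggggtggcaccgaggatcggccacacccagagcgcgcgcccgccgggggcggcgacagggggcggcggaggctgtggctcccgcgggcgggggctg

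FOXO factors are known to act on both BH3-only genes. The FOXO letters began 227 bases before the Bcl2l11 start and 167 bases before this Bbc3 start, and 3.65% of all 32851 RefSeq promoter windows of this length hold them. The EGR letters occurred in both of these windows, and 5.55% of all windows hold them. The Bcl2l11 and Bbc3 windows shown have 71% and 74.7% G and C bases, against a median of 52.7% over all windows. The EGR letters are nearly all G and C, so that share is not from windows of like content. The Bcl2 window held no match to FOXO, STAT (TTCNNNGAA), EGR, AP-1 (TGANTCA), CRE (TGACGTCA), E2F (TTTNGCGC), E-box (CACGTG), NF-kB or p53 half-site letters. A match describes the letters and is no evidence of binding, and the shares of all windows are per window, while Bcl2l11 has 2 windows and Bbc3 has 3. The Bcl2l11 window not shown held no match, 1 Bbc3 window not shown held EGR and NF-kB letters, and the other held an E-box. The windows shown for Bcl2l11 and Bbc3 are therefore the only ones of either gene with FOXO letters, and that both hold them reflects this choice.

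Among the guards, Bcl2 (GRCm38 chromosome 1, 106538178 to 106714274, minus strand) had 109.8, 81.6 and 139 CPM in the 3 OT-I A8B1-OVA libraries. It had 187, 148 and 191 CPM after higher-dose OVA, 373, 246 and 273 CPM after molar-equivalent OVA, and 259, 303 and 321 CPM after saline. The A8B1-OVA libraries lay below every other OT-I library, and the higher-dose OVA libraries lay between them and the others. Bcl2 was 2.69-fold lower after A8B1-OVA than after saline, a log2 fold change of -1.43 ± 0.20 (SE) with an adjusted p of 0.000777. Against molar-equivalent OVA the log2 fold change was -1.44 ± 0.20 (adjusted p = 0.00097). Against higher-dose OVA it was -0.70 ± 0.20 and did not pass (adjusted p = 0.0897), with a 95% interval of -1.14 to -0.26.

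Bcl2l1, whose long product BCL-XL guards mitochondria in activated lymphocytes, had 67.8, 64.4 and 61.2 CPM after A8B1-OVA and 46.5, 57.5 and 56.3 CPM after higher-dose OVA in OT-I cells. It had 23.3, 29.4 and 28.6 CPM after molar-equivalent OVA and 21.6, 32.7 and 28.97 CPM after saline. The A8B1-OVA and higher-dose OVA libraries all lay above those of molar-equivalent OVA and saline. It was 2.31-fold higher after A8B1-OVA than after saline (log2 fold change 1.21 ± 0.16, adjusted p = 0.000436) and 2.37-fold higher than after molar-equivalent OVA. Higher-dose OVA also gave more than saline, by a log2 fold change of 0.97 ± 0.16 (adjusted p = 0.00805), and this call was lost without OT-I higher-dose OVA replicate 2 (adjusted p = 0.0572). The deposited counts are per gene, so the long and short products of Bcl2l1, which have opposite actions, were not told apart.

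Mcl1, the guard with a short-lived protein, averaged 515 ± 30.6 CPM after A8B1-OVA and 494 ± 42.4 CPM after saline in OT-I cells (SD, n = 3 each). Its 4 OT-I group means lay between 494 and 517 CPM, and its largest OT-I log2 fold change was 0.09. The 95% interval for A8B1-OVA against saline was -0.21 to 0.31 on the log2 scale, so a change the size of that in Bcl2 lay outside it.

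**Figure D1:**
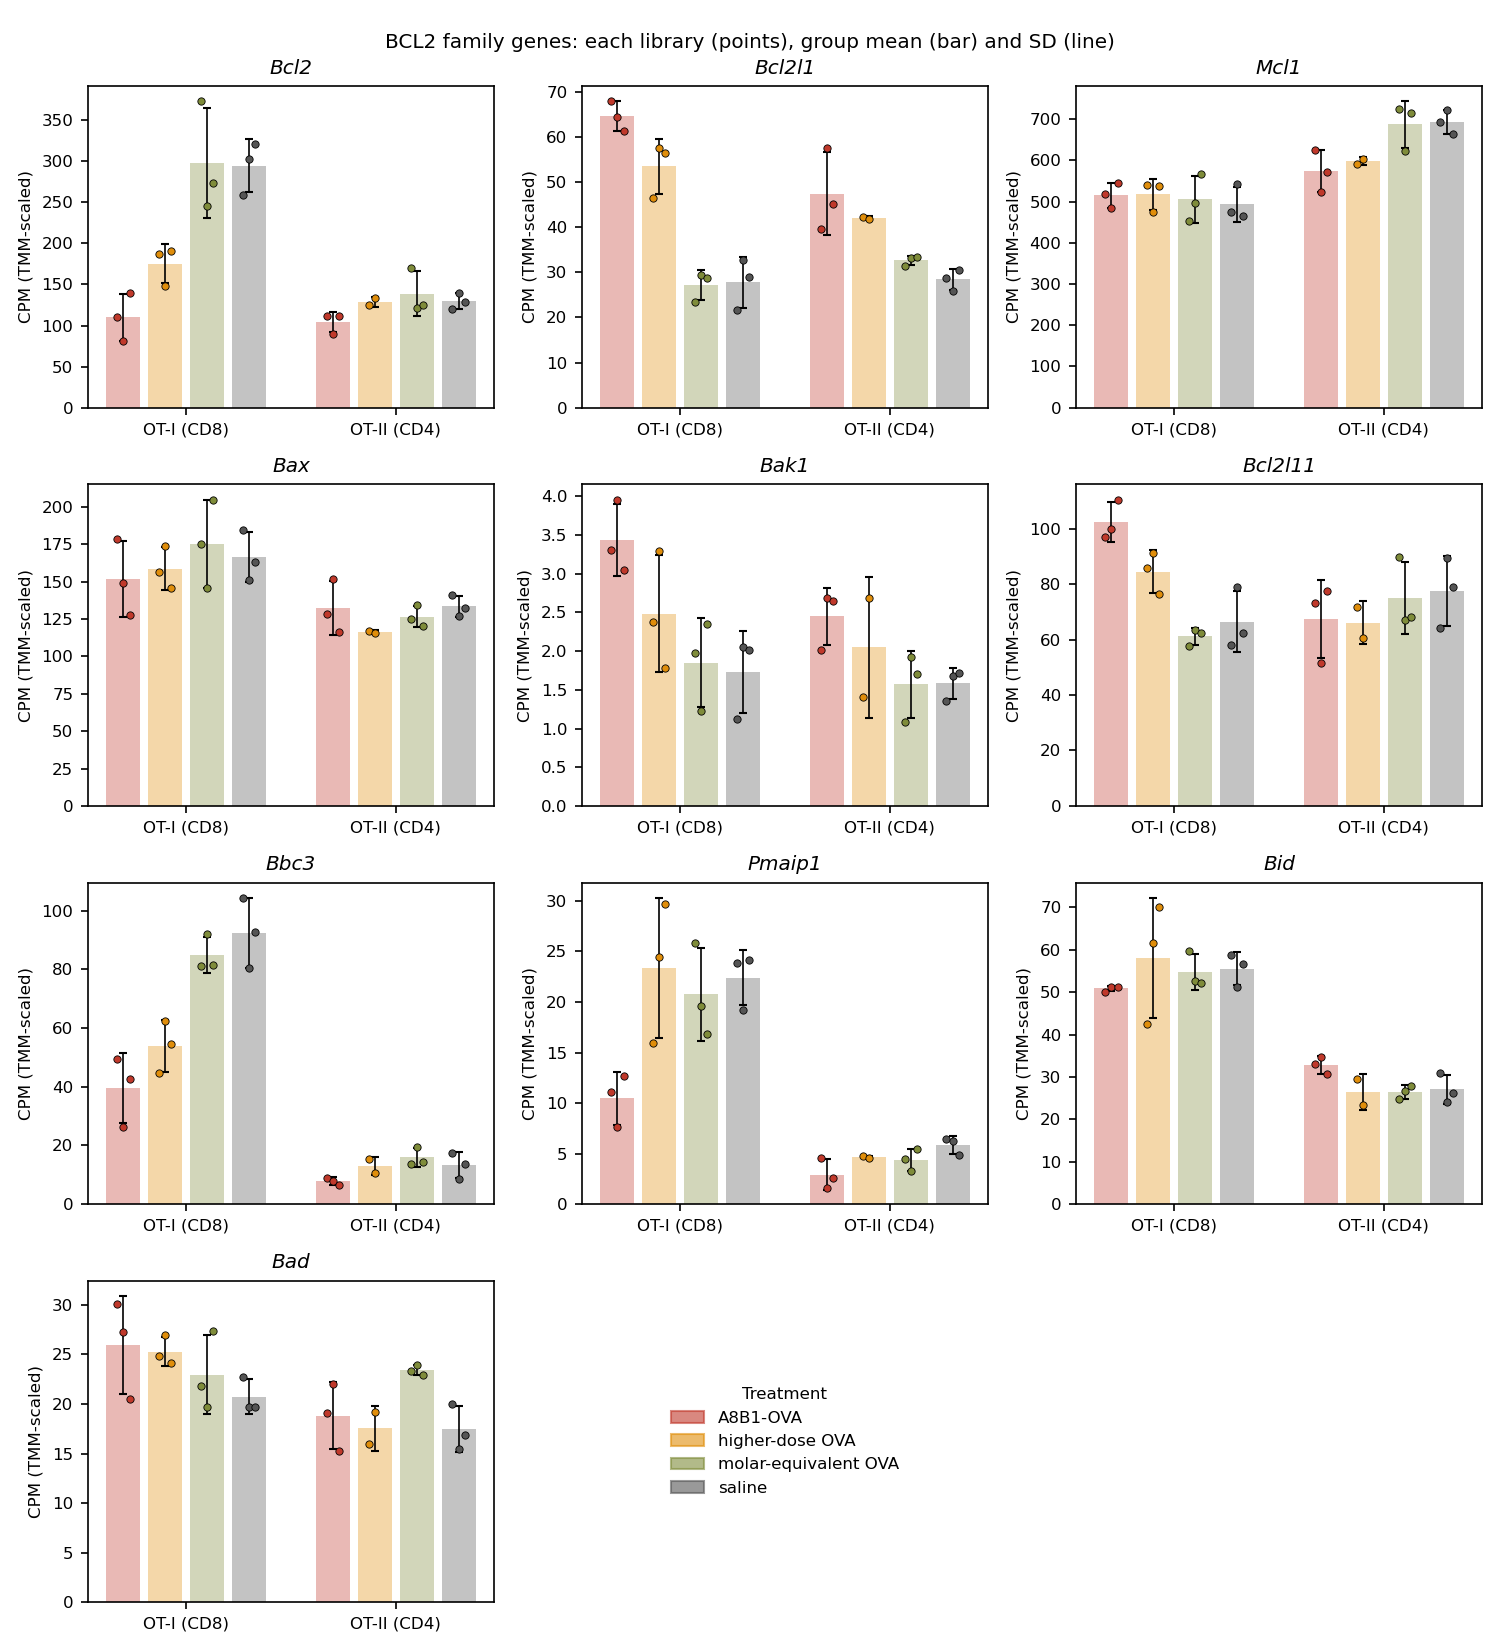
CPM (TMM-scaled) of the 10 BCL2 family genes in OT-I and OT-II cells, by treatment, with a point per library, a bar for the group mean and a line for the SD. In OT-I cells the 3 A8B1-OVA libraries had 81.6 to 139 CPM of Bcl2, below the 259 to 321 CPM of the saline libraries, and Bbc3 was far lower in all OT-II groups.

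The pore formers did not pass the test. Bax averaged 152 ± 25.6 CPM after A8B1-OVA and 166 ± 16.8 CPM after saline in OT-I cells, with overlapping libraries and a log2 fold change of -0.14 ± 0.16. Bak1 was low, with 3.31, 3.96 and 3.05 CPM after A8B1-OVA and 1.12, 2.06 and 2.02 CPM after saline in OT-I cells. The 2 groups of Bak1 values did not overlap, but the log2 fold change of 0.98 ± 0.36 missed the threshold (adjusted p = 0.0996), while DESeq2 called it. Of the transcript sequence of Bak1, 20.4% is shared with other genes, most with Ggnbp1 on the other strand, and the libraries' strandedness is not given in the sources used here, so its counts are uncertain. The same caution covers Bad (18.4%, Gpr137), Bid (16.9%, Bcl2l13) and, less, Bcl2 (6.21%, D630008O14Rik). Bax shares 11.1%, most with Gm45808 on the same strand, so strand would not tell these reads apart, while Bcl2l1, Mcl1, Bcl2l11, Bbc3 and Pmaip1 shared under 0.5%.

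Of the BH3-only genes, Bcl2l11 (chromosome 2, 128126038 to 128162547, plus strand) had 96.9, 99.8 and 110.5 CPM after A8B1-OVA in OT-I cells. It had 85.9, 91.4 and 76.3 CPM after higher-dose OVA, 57.7, 63.3 and 62.4 CPM after molar-equivalent OVA, and 58.1, 78.9 and 62.4 CPM after saline. The A8B1-OVA libraries stood above all others. The gene was 1.53-fold higher than after saline (log2 fold change 0.61 ± 0.13, adjusted p = 0.0105) and 1.67-fold higher than after molar-equivalent OVA (0.74 ± 0.13, adjusted p = 0.0042). The call against saline was lost without OT-I saline replicate 1 (adjusted p = 0.0558), without OT-I saline replicate 3 (adjusted p = 0.06) and with the raised-marker libraries left out (adjusted p = 0.0767), and the call against molar-equivalent OVA held with them left out.

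Bbc3 (chromosome 7, 16308393 to 16318205, plus strand), which encodes the p53-inducible death protein PUMA, had 49.5, 26.3 and 42.6 CPM after A8B1-OVA in OT-I cells. It had 44.7, 62.4 and 54.7 CPM after higher-dose OVA, 81.0, 92.0 and 81.6 CPM after molar-equivalent OVA, and 104, 80.3 and 92.6 CPM after saline. The A8B1-OVA and higher-dose OVA groups lay below both other groups and overlapped each other. That overlap rested on higher-dose OVA replicate 1 (44.7 CPM), a raised-marker library, and was absent without it. The log2 fold change of A8B1-OVA against higher-dose OVA was -0.48 ± 0.20 and did not pass (adjusted p = 0.225). Bbc3 was 2.36-fold lower after A8B1-OVA than after saline (log2 fold change -1.24 ± 0.21, adjusted p = 0.00221) and 2.16-fold lower than after molar-equivalent OVA (adjusted p = 0.00487). For higher-dose OVA against saline the log2 fold change was -0.75 ± 0.20 (adjusted p = 0.0857).

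Pmaip1, which encodes NOXA, a BH3-only protein that binds MCL1, had 11.1, 7.62 and 12.7 CPM after A8B1-OVA in OT-I cells. It had 16.0, 24.4 and 29.7 CPM after higher-dose OVA, 25.8, 19.6 and 16.8 CPM after molar-equivalent OVA, and 23.8, 19.3 and 24.2 CPM after saline. The A8B1-OVA libraries were the 3 lowest, and the other 3 groups overlapped. Pmaip1 was 2.15-fold lower than after saline (log2 fold change -1.10 ± 0.25, adjusted p = 0.0132), 1.99-fold lower than after molar-equivalent OVA (adjusted p = 0.0244) and 2.27-fold lower than after higher-dose OVA (adjusted p = 0.0344). The call against saline was lost without OT-I A8B1-OVA replicate 2 (adjusted p = 0.0772) or OT-I saline replicate 3 (0.0564). The call against molar-equivalent OVA was lost without A8B1-OVA replicate 1 (0.0618), A8B1-OVA replicate 2 (0.127) or molar-equivalent OVA replicate 1 (0.0923), and that against higher-dose OVA without A8B1-OVA replicate 1 (0.0919) or 2 (0.195), or higher-dose OVA replicate 2 (0.0888) or 3 (0.125), or all raised-marker libraries (0.0577).

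Bid, which links death receptors to mitochondria after cleavage by caspase-8, averaged 50.9 ± 0.642 CPM after A8B1-OVA and 55.6 ± 3.82 CPM after saline in OT-I cells, with a log2 fold change of -0.14 ± 0.16. Bad, whose protein is held inactive by growth factor signals through phosphorylation, averaged 25.96 ± 4.93 CPM after A8B1-OVA and 20.7 ± 1.75 CPM after saline (0.31 ± 0.17, adjusted p = 0.249). Neither passed, and the 95% intervals on the log2 scale were -0.47 to 0.20 for Bid and -0.04 to 0.67 for Bad.

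Over the 10 genes, 5 passed in OT-I cells for A8B1-OVA against saline, 2 higher and 3 lower, where 11.5% of the 14080 genes tested passed, 7.07% higher and 4.43% lower. The median log2 fold change of the 10 was -0.04, and that of all tested genes was -0.02. Against molar-equivalent OVA the same 5 genes passed in the same directions, where 10.6% of all tested genes passed, 6.56% higher and 4.06% lower. The A8B1-OVA libraries are shared by both comparisons. Against higher-dose OVA 1 of the 10 passed, as a lower value, and 2.41% of all genes did, 0.774% lower. Higher-dose OVA against saline had 1 of 10, higher, with 2.41% of all genes, 1.97% higher, and against molar-equivalent OVA it had 1 of 10, again Bcl2l1 (log2 fold change 1.00, adjusted p = 0.0144), with 1.04% of all genes, 0.838% higher. That last call was lost without molar-equivalent OVA replicate 1 (adjusted p = 0.0741), higher-dose OVA replicate 2 (0.0819) or higher-dose OVA replicate 3 (0.0633). Molar-equivalent OVA against saline had 0 of 10 by edgeR and 0 by DESeq2, 0 at an unadjusted p under 0.05, and 0.0% of all genes.

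**Figure D2:**
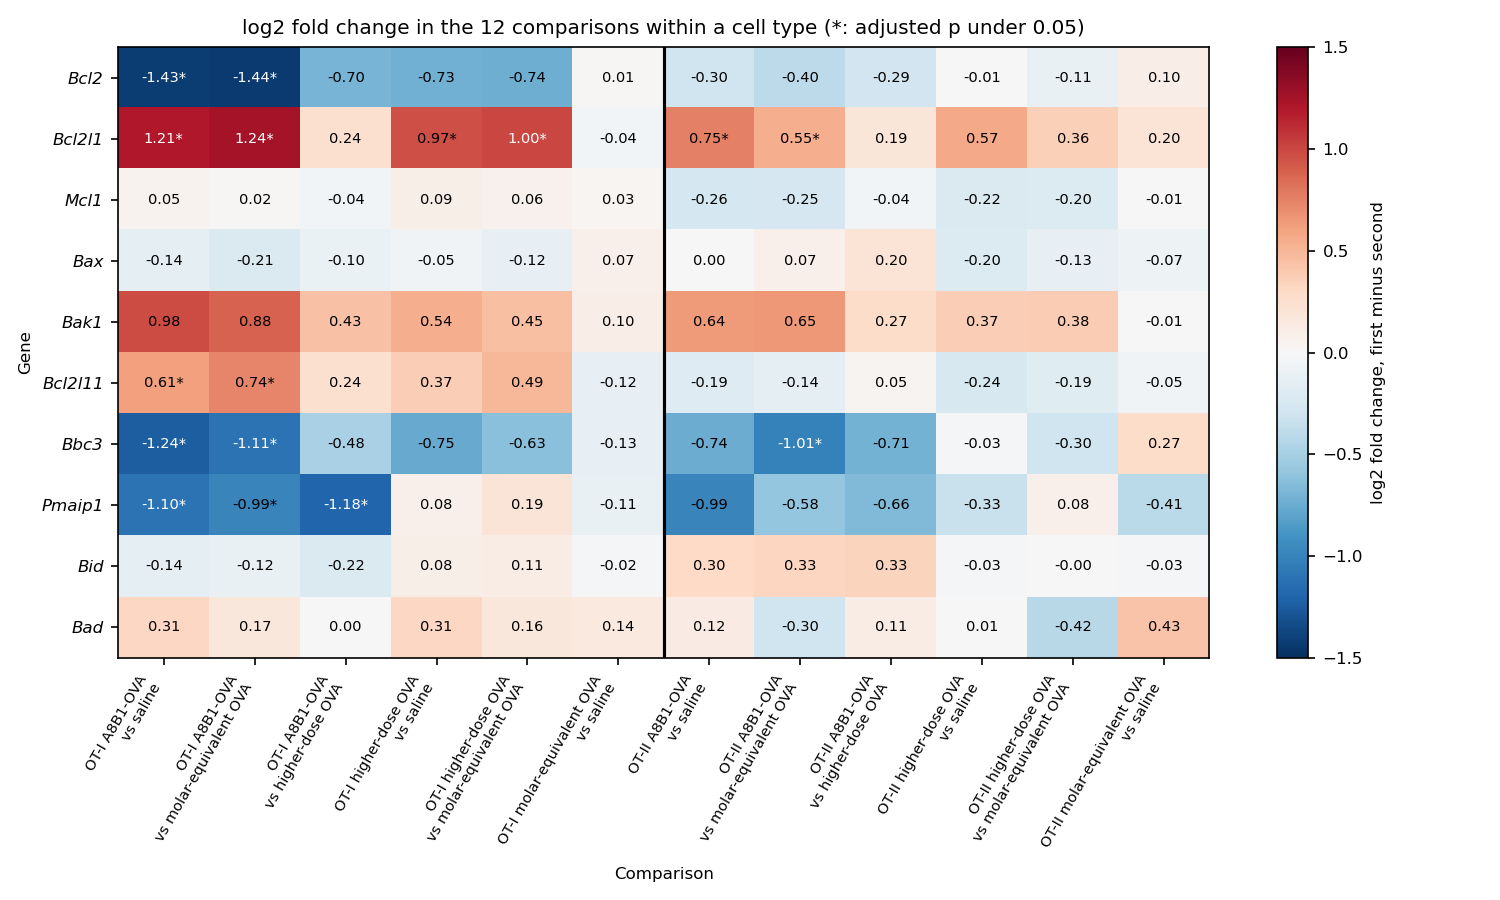
Log2 fold change (first group minus second) of the 10 genes in the 12 comparisons within a cell type, OT-I on the left and OT-II on the right, with an asterisk where the adjusted p was under 0.05. The first OT-I columns hold the called changes of Bcl2 (-1.43 and -1.44) and Bcl2l1 (1.21 and 1.24), and the columns for molar-equivalent OVA against saline hold no asterisk.

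In OT-II cells Bcl2l1 had 39.6, 57.4 and 45.1 CPM after A8B1-OVA, 42.3 and 41.9 CPM after higher-dose OVA, 31.5, 33.1 and 33.3 CPM after molar-equivalent OVA, and 28.7, 25.9 and 30.6 CPM after saline. All A8B1-OVA libraries lay above those of molar-equivalent OVA and saline. It was 1.69-fold higher after A8B1-OVA than after saline (log2 fold change 0.75 ± 0.14, adjusted p = 0.00591), and 1 of the 10 genes passed, where 7.28% of 14757 genes did, 4.4% higher and 2.88% lower. By DESeq2, Bbc3 and Pmaip1 passed as well, where 1921 of 13602 genes did.

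Against molar-equivalent OVA, 2 of the 10 passed in OT-II cells, where 6.36% of all genes did, 3.94% higher and 2.43% lower. These were Bcl2l1 (log2 fold change 0.55 ± 0.14, adjusted p = 0.0317) and Bbc3. Bbc3 had 8.99, 8.03 and 6.53 CPM after A8B1-OVA, 15.3 and 10.8 CPM after higher-dose OVA, 13.8, 19.6 and 14.5 CPM after molar-equivalent OVA, and 17.6, 8.71 and 13.6 CPM after saline. Its A8B1-OVA libraries lay below the molar-equivalent OVA libraries and overlapped those of saline. Its log2 fold change against molar-equivalent OVA was -1.01 ± 0.25 (adjusted p = 0.0345). Both calls were fragile: Bbc3 was lost without any one of the 6 libraries (adjusted p from 0.0619 to 0.117), and Bcl2l1 was lost without A8B1-OVA replicate 2 (0.107), without any molar-equivalent OVA replicate (0.0761 to 0.112) and without the raised-marker libraries (0.09). With the replicate number as a block both calls were lost as well.

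Bcl2 in OT-II cells had 112, 90.1 and 111 CPM after A8B1-OVA and 119.9, 139.6 and 129 CPM after saline, without overlap. The log2 fold change was -0.30 ± 0.14 (adjusted p = 0.25), with an interval of -0.60 to 0.01. Bcl2l11 averaged 67.4 ± 13.96 CPM after A8B1-OVA and 77.5 ± 12.6 CPM after saline in OT-II cells, and the groups overlapped (-0.19 ± 0.18). Pmaip1 was low, at 4.57, 1.56 and 2.61 CPM after A8B1-OVA and 6.41, 6.29 and 4.84 CPM after saline, without overlap (-0.99 ± 0.36, adjusted p = 0.124). Mcl1 had 626, 524 and 571 CPM after A8B1-OVA and 692, 723 and 664 CPM after saline, also without overlap. The Mcl1 log2 fold change was -0.26 ± 0.09 (adjusted p = 0.121), with an interval of -0.46 to -0.06. By edgeR, 5 of the 10 genes had an unadjusted p under 0.05 for A8B1-OVA against saline, and 5 against molar-equivalent OVA, the called genes included. The share of all genes at that threshold was not computed, nor was the share of all genes without overlap. These counts and separations therefore do not set the members apart from other genes.

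The remaining OT-II comparisons had 0 of 10 by edgeR and by DESeq2. A8B1-OVA against higher-dose OVA had 2 members at an unadjusted p under 0.05 and 1.34% of all genes called. Higher-dose OVA against saline had 1 such member and 0.0271% of all genes, higher-dose against molar-equivalent OVA had 2 and 0.0%, and molar-equivalent OVA against saline had 1 and 0.0%. The shares of all genes are at the adjusted threshold. None was computed at an unadjusted p under 0.05, so the member counts at that threshold have no share beside them. The higher-dose OVA group of OT-II cells had 2 libraries.

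**Figure D3:**
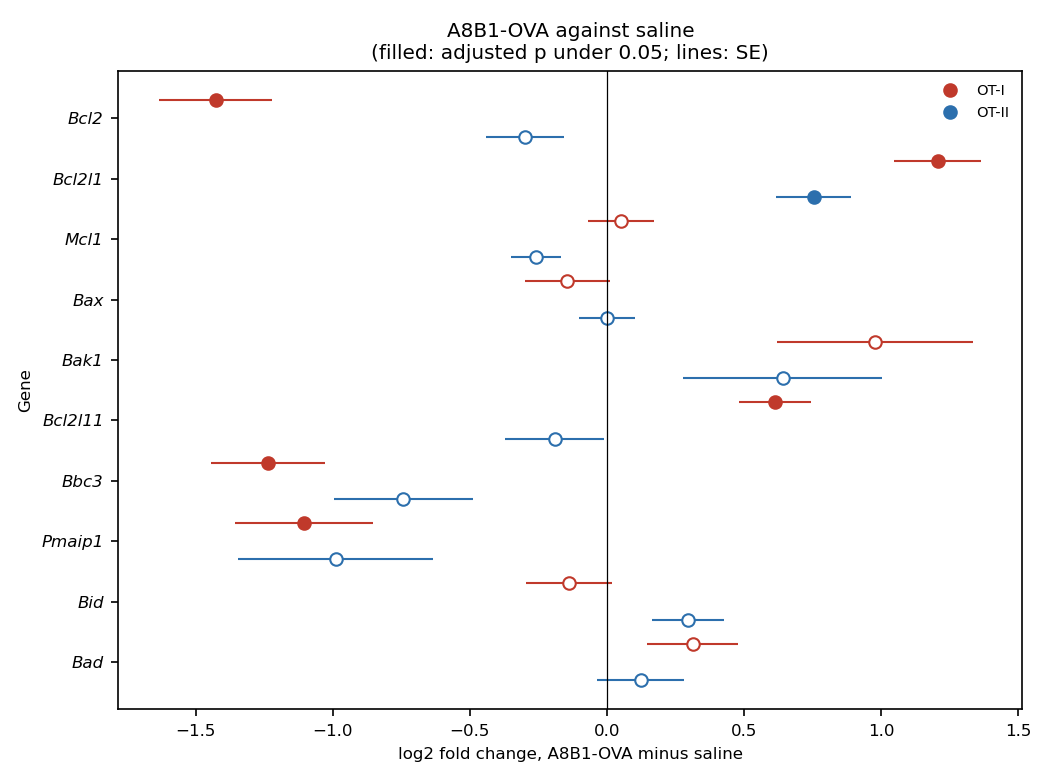
Log2 fold change of A8B1-OVA minus saline for each gene, OT-I in red and OT-II in blue, with SE as lines and filled points where the adjusted p was under 0.05. Bcl2 lay at -1.43 in OT-I and -0.30 in OT-II cells, and Bcl2l1 at 1.21 in OT-I and 0.75 in OT-II cells.

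Whether the response of OT-I cells differed from that of OT-II cells was tested itself, as an interaction in 1 model over all 23 libraries. For A8B1-OVA against saline 0 of the 10 genes passed by edgeR, where 0.433% of 15235 genes passed. At an unadjusted p under 0.05 there were 4 members. The share of all genes at that looser threshold was not computed, so such counts, here and below, cannot be set against the shares that passed. The interaction of Bcl2 was -1.11 ± 0.26 (log2, OT-I minus OT-II response, adjusted p = 0.0713), with an interval of -1.65 to -0.57. That of Bcl2l11 was 0.83 ± 0.23 (adjusted p = 0.149). DESeq2 called both, with adjusted p-values of 0.00419 for Bcl2 and 0.0331 for Bcl2l11, and without OT-I A8B1-OVA replicate 3 edgeR called Bcl2 (0.0182). With the replicate number as a block edgeR called Bcl2 as well, though the labels do not say that numbers pair libraries. With molar-equivalent OVA in place of saline, 0 passed by edgeR, 4 had an unadjusted p under 0.05, DESeq2 called Bcl2 and Bcl2l11, and 0.282% of all genes passed. The block gave a called member there too. For A8B1-OVA against higher-dose OVA and for higher-dose OVA against saline 0 passed by edgeR and by DESeq2, 1 and 3 had an unadjusted p under 0.05, and 0.00656% of all genes passed in each.

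The cell types themselves differed in 3 BH3-only genes under every treatment. Under saline, Bbc3 averaged 92.4 ± 11.98 CPM in OT-I and 13.3 ± 4.44 CPM in OT-II cells (SD, n = 3 each), a 6.95-fold difference (log2 fold change 2.80 ± 0.25, adjusted p = 1.28e-07). Its log2 fold change was 2.33 after A8B1-OVA, 2.05 after higher-dose OVA and 2.41 after molar-equivalent OVA. Every OT-I library had more Bbc3 than every OT-II library, the lowest OT-I value being 26.3 CPM and the highest OT-II value 19.6 CPM.

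Pmaip1 averaged 22.4 ± 2.74 CPM in OT-I and 5.85 ± 0.873 CPM in OT-II cells under saline (3.83-fold, adjusted p = 0.000172), and its log2 fold change lay between 1.85 and 2.33 over the 4 treatments. Bid averaged 55.6 ± 3.82 CPM in OT-I and 27.1 ± 3.498 CPM in OT-II cells under saline (2.05-fold, adjusted p = 3.87e-05). After A8B1-OVA the Bid difference was 1.55-fold (adjusted p = 0.00434). All 3 genes passed under all 4 treatments.

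Bcl2 averaged 294 ± 32.3 CPM in OT-I and 129.6 ± 9.89 CPM in OT-II cells under saline (2.27-fold, adjusted p = 0.000116) and was also higher in OT-I cells under molar-equivalent OVA (2.15-fold, adjusted p = 0.00024). After A8B1-OVA it averaged 110.1 ± 28.7 CPM in OT-I and 104 ± 12.4 CPM in OT-II cells, with overlapping libraries (log2 fold change 0.08, 95% interval -0.30 to 0.46, adjusted p = 0.814). Under higher-dose OVA the log2 fold change was 0.44 ± 0.21 (adjusted p = 0.2).

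Mcl1 was lower in OT-I than in OT-II cells under saline, at 494 ± 42.4 CPM in OT-I and 693 ± 29.4 CPM in OT-II cells (log2 fold change -0.49, adjusted p = 0.00206), and under molar-equivalent OVA (-0.44, adjusted p = 0.00471). Without the raised-marker libraries neither call held (adjusted p = 0.0619 and 0.0825). After A8B1-OVA, OT-I cells had more Bcl2l1 (log2 fold change 0.44, adjusted p = 0.0387), more Bcl2l11 (0.60, adjusted p = 0.0113) and more Bad (0.46, adjusted p = 0.0492) than OT-II cells. With plain library totals these 3 calls were lost, with adjusted p-values of 0.225, 0.0947 and 0.203. Leaving out 1 library ended the Bcl2l1 call for OT-I A8B1-OVA replicate 1 (0.118) or 2 (0.0983) and OT-II A8B1-OVA replicate 1 (0.188) or 3 (0.132), and the Bcl2l11 call for OT-II A8B1-OVA replicate 2 (0.0579). It ended the Bad call for OT-I A8B1-OVA replicate 1 (0.228) or 2 (0.158) and OT-II A8B1-OVA replicate 1 (0.107) or 3 (0.253), and leaving out the raised-marker libraries ended it too (0.0664). Bax was higher in OT-I cells under molar-equivalent OVA (0.47, adjusted p = 0.0214), a call lost without OT-I molar-equivalent OVA replicate 3 (0.194) or OT-II molar-equivalent OVA replicate 1 (0.0676) or 3 (0.0798).

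In counts, OT-I against OT-II gave 6 of 10 genes higher after A8B1-OVA, where 20.6% of 15235 genes passed and 12.2% were higher. Under higher-dose OVA it gave 3 higher, with 10.1% of all genes passing and 5.52% higher. Under molar-equivalent OVA it gave 5 higher and 1 lower, with 16.0% of all genes, 8.91% higher and 7.06% lower. Under saline it gave 4 higher and 1 lower, with 15.5% of all genes, 8.36% higher and 7.11% lower. The sort took OT-I as CD8 and OT-II as CD4 cells with different receptors, so lineage and receptor cannot be told apart.

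**Figure D4:**
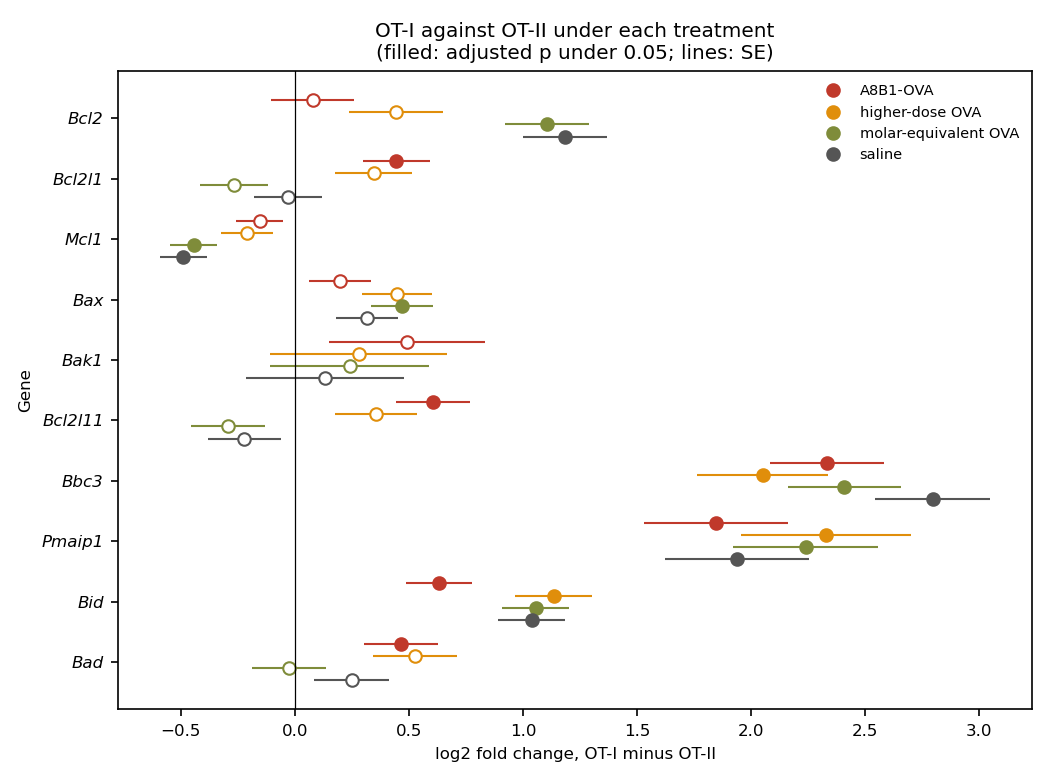
Log2 fold change of OT-I minus OT-II for each gene under each of the 4 treatments, with SE as lines and filled points where the adjusted p was under 0.05. Bbc3 lay between 2.05 and 2.80 and Pmaip1 between 1.85 and 2.33, while Bcl2 lay at 1.18 under saline and 0.08 after A8B1-OVA.

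A single pair of guard and killer was described by the ratio of Bcl2 to Bcl2l11 counts within a library. Ratios of other pairs were not computed. In OT-I cells after A8B1-OVA the guard Bcl2l1 was higher and the killers Bbc3 and Pmaip1 were lower than after saline. The ratio therefore does not stand for the balance of the family. The counts are not divided by transcript length, so the ratio is read only between groups. In OT-I cells it was 1.13, 0.818 and 1.26 after A8B1-OVA, 2.17, 1.62 and 2.50 after higher-dose OVA, 6.46, 3.89 and 4.38 after molar-equivalent OVA, and 4.45, 3.83 and 5.15 after saline. The A8B1-OVA libraries had the 3 lowest ratios, the higher-dose OVA libraries came next, and the other 2 groups overlapped. In OT-II cells the group means were 1.57 ± 0.163 after A8B1-OVA, 1.97 ± 0.324 after higher-dose OVA, 1.84 ± 0.0429 after molar-equivalent OVA and 1.69 ± 0.156 after saline. The ratio was given no test of its own, since it restates the counts of both genes.

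**Figure D5:**
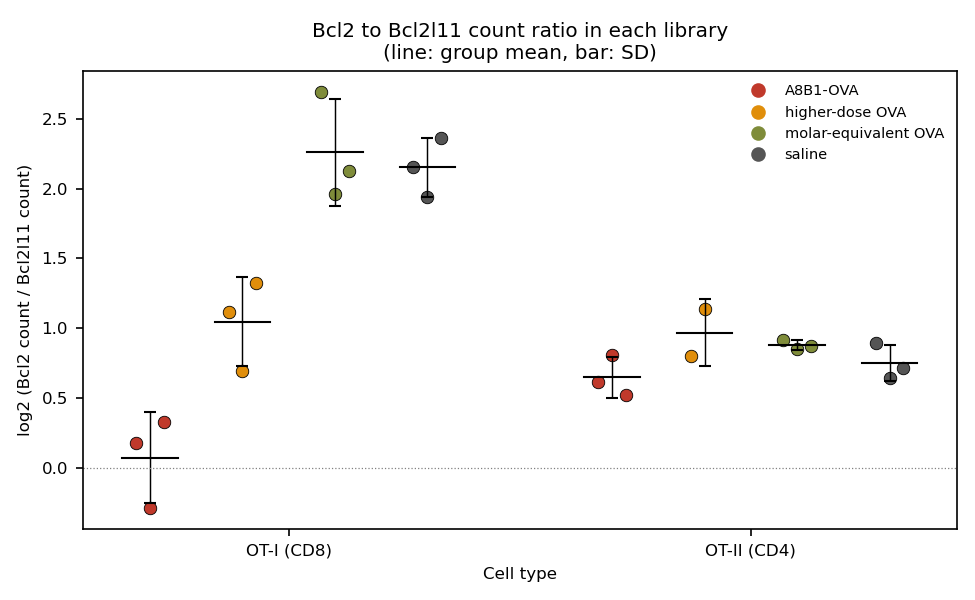
Log2 ratio of Bcl2 to Bcl2l11 counts in each library, by cell type and treatment, with the group mean as a line and the SD as a bar. In OT-I cells the mean log2 ratio was 0.07 after A8B1-OVA and 2.15 after saline, and in OT-II cells it was 0.65 after A8B1-OVA and 0.75 after saline.

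Other genes of the pathway were counted from lists. Of 14 further BCL2 family genes, 11 were tested, and 2 rose after A8B1-OVA against saline in each cell type, with 0 falling. Among all tested genes 7.07% were higher and 4.43% lower in OT-I cells, and 4.4% were higher and 2.88% lower in OT-II cells. Both were A1 genes, guards that NF-kB turns on. Bcl2a1b had 108, 107 and 68.2 CPM after A8B1-OVA and 22.2, 16.9 and 13.7 CPM after saline in OT-I cells (log2 fold change 2.41 ± 0.26, adjusted p = 0.000148), and Bcl2a1d had a log2 fold change of 2.96 ± 0.36 there. In OT-II cells these were 1.69 ± 0.23 for Bcl2a1b and 1.98 ± 0.27 for Bcl2a1d. Of the 31-base stretches of the A1 genes, 79.6% to 89.1% also occur in other genes, most often in another A1 gene. How counts were split among them is therefore uncertain.

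Of 7 inhibitors of apoptosis, Birc5 rose in OT-I cells (log2 fold change 4.23 ± 0.57), with 121, 226 and 55.3 CPM after A8B1-OVA and 9.16, 6.44 and 5.55 CPM after saline. Its product survivin also serves cell division. None of the 7 passed in OT-II cells by edgeR, where 4 had an unadjusted p under 0.05. Of 10 death receptor genes, 0 passed in OT-I cells by edgeR, with 0 at an unadjusted p under 0.05, and 1 rose in OT-II cells, the TNF receptor gene Tnfrsf1b (0.62 ± 0.10, adjusted p = 0.00316). Of 11 tested p53 pathway genes, 1 rose in OT-I cells, the low-level Perp (1.69 ± 0.325 CPM after A8B1-OVA and 0.242 ± 0.0166 CPM after saline), and 0 passed in OT-II cells by edgeR, with 3 at an unadjusted p under 0.05. For these 3 lists, counts of 0 or 1 lie near the shares of all tested genes, 11.5% in OT-I and 7.28% in OT-II cells. No share of all genes at an unadjusted p under 0.05 was computed to set beside the counts of 4 and 3.

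Of 15 genes of cytokine survival input, 2 rose and 2 fell after A8B1-OVA against saline in each cell type, beside 7.07% higher and 4.43% lower of all tested genes in OT-I cells and 4.4% higher and 2.88% lower in OT-II cells. Il7r, the receptor chain for interleukin-7, had 131, 95.9 and 171 CPM after A8B1-OVA and 425, 449 and 442 CPM after saline in OT-I cells (log2 fold change -1.74 ± 0.20, adjusted p = 0.000204). In OT-II cells its log2 fold change was -1.40 ± 0.18 (adjusted p = 0.001), and against higher-dose OVA it was -0.86 ± 0.20 in OT-I (adjusted p = 0.0426) and -1.11 ± 0.20 in OT-II cells (adjusted p = 0.0223). Pim1, a survival kinase gene downstream of cytokine receptors, had a log2 fold change of -0.98 ± 0.24 in OT-I and of -0.998 ± 0.18 in OT-II cells. Il2rb, a receptor chain for interleukins 2 and 15, rose by 0.87 in OT-I and 1.52 in OT-II cells on the log2 scale, and Stat5a, a transducer of these signals, by 0.62 in OT-I and 0.86 in OT-II cells.

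The list medians in OT-I cells for A8B1-OVA against saline were 0.11 for further BCL2 family genes, -0.03 for inhibitors of apoptosis, -0.05 for death receptor genes, 0.13 for p53 pathway genes and -0.14 for cytokine input, beside -0.02 for all tested genes. In OT-II cells they were 0.22, 0.03, -0.05, 0.15 and -0.06 in the same order, beside -0.01 for all tested genes.

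The genes whose levels ran most like Bcl2 over the 23 libraries, among 8498 genes with a mean of at least 10 CPM, were Apol7e (Pearson r = 0.97), Gab3 (0.90), Ccr9 (0.90) and Sh3bp5 (0.90). Within the 12 OT-I libraries the Apol7e correlation was 0.98 and within the 11 OT-II libraries 0.80. Those most like Bcl2l11 were Tbl2 (0.74), Eea1 (0.70), Gtf3c4 (0.67) and Gnptab (0.67), and for Eea1 the correlation was 0.90 within OT-I and -0.15 within OT-II libraries. The libraries share their treatment groups and cell types, so these values describe the pattern and carry no test.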

How the data were processed

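PolyA RNA of sorted cells was made into cDNA by the SmartSeq protocol, per the labels' protocols. The authors deposited estimated counts per protein-coding gene, whole numbers in the file, and per the submitters' processing notes bcl2fastq, kallisto 0.46.1 and the GRCm38 build were used. Library strandedness and the authors' filters are not stated there. Genes were filtered with filterByExpr (minimum count 10), scaled by TMM and tested with edgeR 4.0.16 (R 4.3.3) by its quasi-likelihood test, with Benjamini-Hochberg adjustment over all tested genes and a threshold of 0.05. All libraries of a cell type entered its comparisons, and all 23 entered OT-I against OT-II and the interactions. Nothing states that replicates were separate transfers, so p-values measure the spread between these pools. DESeq2 1.42.0, RLE factors, no filter, the 2 groups alone, a replicate block and left-out libraries were tried. Leaving out the 5 raised-marker libraries and plain library totals were added after the data were seen. Numbers were taken to pair libraries only where every same-numbered pair correlated over 0.1 in its deviations. This held between the OT-I and OT-II saline libraries (0.281, 0.129 and 0.128), where a block changed no member's call, and not over the pairs as a whole, so no block was used. No replicate pair was identical. Steps were tested on simulated data. Marker sums used plain totals. Named genes were the 10 members, up to 4 called genes per list with the lowest adjusted p for A8B1-OVA against saline, and 4 genes by correlation. The results of 1 further gene list are not reported here. Members and lists were chosen with earlier results of these data known.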

Additional observations from a re-analysis of the deposited data

How the results depend on the processing

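The 36 called values of single genes were recomputed under 445 alternatives. None of these 445 changed sign, 53 lost their call and the rest kept it, and values not called were given no direction. Counts of members called moved by over 1.5 times as follows. By DESeq2 they were 2 for OT-I A8B1-OVA against higher-dose OVA (1 by edgeR), 3 for OT-I higher-dose OVA against saline (1), 3 for OT-I higher-dose against molar-equivalent OVA (1), 3 for OT-II A8B1-OVA against saline (1), 5 for OT-I against OT-II under higher-dose OVA (3), and 2 for the interactions of A8B1-OVA against saline and against molar-equivalent OVA (0 each). DESeq2 also called more of all genes in the first 4 of these comparisons. It called 1185 of 12005, 721 of 14076, 617 of 12005 and 1921 of 13602. By edgeR these were 339, 339 and 146 of 14080, and 1074 of 14757. With only the 2 groups fitted the members called were 0, 3 and 0 for the first 3 of these comparisons and 1 for OT-II A8B1-OVA against molar-equivalent OVA (2). In those first 3, 210 of 12968, 583 of 13084 and 2 of 12719 genes passed. Without the raised-marker libraries the members called were 0 for OT-I A8B1-OVA against higher-dose OVA and 1 for OT-II A8B1-OVA against molar-equivalent OVA. With plain library totals the interaction for A8B1-OVA against saline had 1 (Bcl2, adjusted p = 0.0498), and the median of all genes for OT-I against OT-II after A8B1-OVA shifted by -0.193. Plain totals leave out the TMM factors, which were 0.896, 0.907 and 0.980 in the OT-I and 1.05, 1.04 and 1.09 in the OT-II A8B1-OVA libraries. Why these factors differed between the cell types was not tested. Leaving out 1 library gave 3 to 5 members for OT-I A8B1-OVA against saline, 4 to 5 against molar-equivalent OVA and 0 to 2 against higher-dose OVA. It gave 0 to 1 for OT-I higher-dose OVA against saline and against molar-equivalent OVA, 1 to 2 for OT-II A8B1-OVA against saline, 0 to 1 against molar-equivalent OVA, and 0 to 1 for both interactions above.

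With the replicate number as a block, OT-II A8B1-OVA against molar-equivalent OVA had 0 members (Bbc3 adjusted p = 0.0505, Bcl2l1 0.0517), and the interactions for A8B1-OVA against saline and against molar-equivalent OVA had 1 each, Bcl2 at 0.00459 in the first. Of 33 same-numbered pairs within a cell type, 2 correlated over 0.1, and of 11 pairs across cell types 6 did. A library correlated best with its own number in 20 of 66 checks within and 15 of 22 across cell types, a hint from the data and not from the design. Counting error weighs most on the members with the lowest levels, Bak1 (from 1.08 CPM) and OT-II Pmaip1 (from 1.56 CPM).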
